A study of Arabidopsis thaliana with 6 samples.

Results

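The 10 genes described here direct or carry out the synthesis of aliphatic glucosinolates in *Arabidopsis thaliana*, and were chosen by their locus identifiers among 27372 genes in the expression table. They comprise the regulators *MYB28*, *MYB29* and *MYB76*, the chain elongation genes *BCAT4*, *MAM1* and *MAM3*, the cytochrome P450 genes *CYP79F1*, *CYP79F2* and *CYP83A1*, and the side chain gene *FMO GS-OX1*. All 10 were among the 19839 genes averaging 0.5 FPKM or more (fragments per kilobase of transcript, relative to all mapped fragments) that were tested. RNA came from whole seedlings of wild type Col-0 and of *fer-4*, a T-DNA insertion allele of the receptor-like kinase gene *FER* in the Col-0 background, with 3 biological replicates of each genotype. Both were grown on MS-agar for 7 days under long days at moderately elevated light, given as 154 μmol per square metre and second in the paper's methods and as the same number of mmol in the labels, and were harvested at zeitgeber time 3. The study asked which genes depend on *FER* under this light. A single mutant allele was used, and whole seedlings mix root and shoot cells.

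Glucosinolates are sulfur-rich glucosides of the Brassicaceae, stored apart from the myrosinases that split them into defensive products when tissue is crushed. In the aliphatic branch, methionine is lengthened by cycles of chain elongation, converted by cytochrome P450 enzymes to an aldoxime and then to an activated intermediate, joined to sulfur, glucose and sulfate, and finally modified on its side chain. *MYB28*, *MYB29* and *MYB76* encode related R2R3-MYB transcription factors that activate the genes of this branch, and they act together with bHLH factors of jasmonate signaling such as MYC2.

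In *fer-4* seedlings the 7 enzyme genes rose 2.04- to 4.46-fold, whereas *MYB28* was at 0.898 of its wild type level and did not pass the test. In whole seedlings, more cells of a type and more RNA per cell cannot be told apart. Of the 10 genes, 8 rose, none fell and 2 did not pass at an adjusted p under 0.05, against 18.0% of all genes tested that rose and 16.0% that fell (limma on log2(FPKM + 0.1), 2-sided, Benjamini-Hochberg over all genes tested). By the study's thresholds for a differentially expressed gene (DEG), an adjusted p not above 0.01 with a difference of 2-fold or more, 7 of the 10 were higher DEGs and none was a lower DEG, against 6.36% and 2.53% of all genes tested. In 9 of the 10 every *fer-4* library lay above every Col-0 library, which held for 26.1% of all genes tested. The median log2 fold change was 1.18 over the 10 genes and -0.01 over all genes tested. When each of the 6 libraries was left out in turn, 8 of the 10 rose every time and 6 to 7 were higher DEGs. After quantile normalization 5 of the 10 were higher DEGs.

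**Figure D1:**
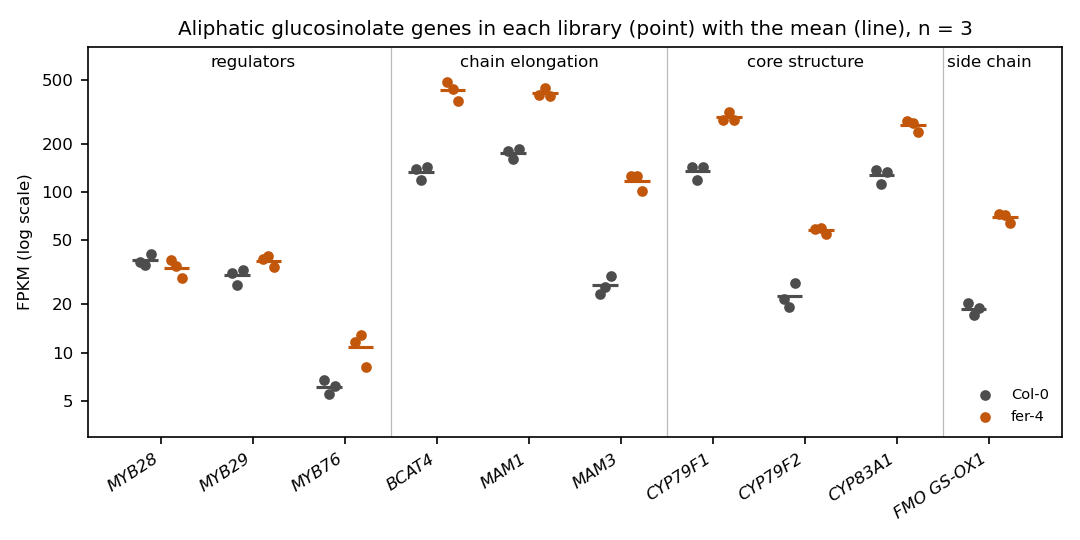
FPKM on a log scale (vertical axis) of each of the 10 genes, grouped by role, in the 3 Col-0 and 3 *fer-4* libraries, where each point is a library and each line the mean of a genotype. The points of the genotypes overlap for *MYB28*, lie close for *MYB29*, and stand apart for the 7 enzyme genes, for example *MAM3* with 23.3 to 30.2 FPKM in wild type, against 101.5 to 125.9 in *fer-4*.

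*FER* itself was the check of the genotype, at 61.2 ± 4.23 FPKM in wild type and 0.0538 ± 0.0329 FPKM in mutant seedlings (SD, n = 3). The summed FPKM of a library lay between 910619 and 1058751, and the number of genes above 0 between 21824 and 22015. Libraries correlated over genes with Pearson's r of 0.985 to 0.989 among Col-0, 0.977 to 0.984 among *fer-4* and 0.907 to 0.925 from one genotype to the other, where genes are not independent replicates. Read counts were not analysed here, and the depth is therefore unknown. Over all genes tested 3569 rose and 3170 fell, thus 53.0% of the changed genes were higher, and after quantile normalization 3064 rose and 4203 fell (42.2% higher). Under upper quartile scaling the share was 42.0%. The 10 genes differed in the same direction under both scalings, with 8 rising.

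*MYB28* (AT5G61420, chromosome 5 from 24689151 to 24691095 in TAIR10) encodes the main activator of the branch. Its mRNA was at 36.8, 35.0 and 40.9 FPKM in the Col-0 libraries and at 37.6, 34.5 and 29.2 FPKM in the *fer-4* libraries. The genotypes overlapped, with the lowest value in a *fer-4* library and the highest in a Col-0 library. *MYB28* had a log2 fold change of -0.16 (limma, with a standard error, SE, of 0.11 and an adjusted p = 0.317), and the 95% interval of the difference, not adjusted for the number of genes, ran from 0.747- to 1.07-fold. Over the 15 alternative settings its log2 fold change ranged from -0.26 to -0.06, and the lowest adjusted p was 0.105.

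*MYB29* (AT5G07690, chromosome 5 from 2446764 to 2448543), a second activator known to respond to jasmonate, was at 31.5, 26.5 and 32.8 FPKM in Col-0 libraries, and at 38.1, 40.0 and 33.9 FPKM in the mutant. The genotypes did not overlap, although the lowest *fer-4* value was close to the highest Col-0 value. *MYB29* had a log2 fold change of 0.31 (limma, SE 0.11, adjusted p = 0.0617) and did not pass in any of the 15 alternatives, where the adjusted p ranged from 0.0510 to 0.217.

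*MYB76* (AT5G07700, chromosome 5 from 2450325 to 2451578) lies 1.44 kb beyond *MYB29* on the same strand. It was at 6.74, 5.51 and 6.17 FPKM in Col-0 libraries, and at 11.6, 12.8 and 8.16 FPKM in the mutant, so that the *fer-4* libraries were all higher but spread more widely. *MYB76* rose with a log2 fold change of 0.79 (limma, SE 0.17, adjusted p = 0.00933), and passed in each of the 15 alternatives (adjusted p up to 0.0405). It remained the least abundant of the 10 genes in both genotypes. The coding sequences of the regulators were 75.5% to 79.2% identical in pairs, with identical runs of at most 32 bases.

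The 3 chain elongation genes rose by unequal amounts. *BCAT4* (AT3G19710) encodes the methionine aminotransferase of the first step. It was at 139, 119 and 144 FPKM in Col-0 libraries, and at 486, 439 and 371 FPKM in the mutant, with a wide gap between the genotypes. *BCAT4* had a log2 fold change of 1.68 (limma, SE 0.13, adjusted p = 3.8e-05). In RefSeq the gene spans chromosome 3 from 6846969 to 6849582, while the locus in the files, from 6843662 to 6849497, also takes in AT3G19700, whose own mean was 0.0180 FPKM in Col-0 and which was listed at 0 in *fer-4*.

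*MAM1* (AT5G23010, chromosome 5 from 7703092 to 7706896) encodes the methylthioalkylmalate synthase that forms short side chains. It was at 179, 160 and 184 FPKM in Col-0 libraries, and at 403, 447 and 397 FPKM in the mutant, again without overlap. *MAM1* rose with a log2 fold change of 1.25 (limma, SE 0.10, adjusted p = 5.0e-05). Its paralog *MAM3* (AT5G23020, chromosome 5 from 7718121 to 7721839), whose enzyme accepts short and long chains and is needed for the long ones, begins 11.1 kb further along. *MAM3* was at 23.3, 25.6 and 30.2 FPKM in Col-0 libraries, and at 126, 125 and 102 FPKM in the mutant. Every *fer-4* library was above every Col-0 library. With a log2 fold change of 2.15 (limma, SE 0.13, adjusted p = 1.1e-05), *MAM3* had the largest change of the 10 genes. Within a library, the ratio of *MAM3* to *MAM1* was 0.130, 0.160 and 0.164 in Col-0 and 0.313, 0.280 and 0.256 in *fer-4*, higher in every mutant library. The coding sequences of *MAM1* and *MAM3* were 84.2% identical, and their longest identical run was 30 bases.

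The 3 P450 genes rose by 1.03 to 1.37 on the log2 scale. *CYP79F1* (AT1G16410, chromosome 1 from 5608807 to 5611426) and *CYP79F2* (AT1G16400, chromosome 1 from 5605159 to 5607473) are neighbours 1.18 kb apart, and their enzymes make aldoximes from the elongated amino acids, that of *CYP79F2* only from long ones. *CYP79F1* was at 143, 120 and 143 FPKM in Col-0 libraries, and at 281, 314 and 282 FPKM in the mutant. The values of *CYP79F2* were lower, at 21.5, 19.2 and 27.0 FPKM in Col-0 libraries, and at 59.1, 60.0 and 55.0 FPKM in the mutant. Neither gene overlapped between the genotypes. *CYP79F1* had a log2 fold change of 1.11 (limma, SE 0.10, adjusted p = 1.4e-04) and *CYP79F2* one of 1.37 (limma, SE 0.13, adjusted p = 1.2e-04). Their coding sequences were 91.9% identical with a run of 100 identical bases, so reads may have been shared between them, and the ratio of *CYP79F2* to *CYP79F1*, 0.166 ± 0.0197 in Col-0 and 0.199 ± 0.0101 in *fer-4* (SD, n = 3), is uncertain to that extent.

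*CYP83A1* (AT4G13770, chromosome 4 from 7990485 to 7992311) encodes the P450 enzyme that oxidises the aldoximes. It was at 137, 112 and 134 FPKM in Col-0 libraries, and at 277, 268 and 237 FPKM in the mutant, which left the genotypes clearly apart. *CYP83A1* had a log2 fold change of 1.03 (limma, SE 0.11, adjusted p = 2.7e-04), the smallest among the 7 enzyme genes and close to the limit of a DEG. Its log2 fold change ranged from 0.89 to 1.10 over the alternatives, and it passed at an adjusted p of at most 0.00181 in each.

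Short stretches around the starts of the P450 genes are shown because these are the only ones of the 10 genes that hold the word ACCTACC, an AC element of the kind bound by plant R2R3-MYB factors, within 250 bases before to 50 bases after the RefSeq start of the gene. Sequences run 5′ to 3′ on the strand of the gene in TAIR10.1, and capitals mark the word or its reverse complement.
CYP83A1, chr4:7992430-7992679, minus strand, the 250 bases before the start: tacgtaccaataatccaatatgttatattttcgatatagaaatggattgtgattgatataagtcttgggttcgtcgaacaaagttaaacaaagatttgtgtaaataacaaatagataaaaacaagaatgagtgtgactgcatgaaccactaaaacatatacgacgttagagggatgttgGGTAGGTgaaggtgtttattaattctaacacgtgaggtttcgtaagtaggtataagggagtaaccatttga
CYP79F2, chr1:5604794-5605043, plus strand, the 250 bases before the start: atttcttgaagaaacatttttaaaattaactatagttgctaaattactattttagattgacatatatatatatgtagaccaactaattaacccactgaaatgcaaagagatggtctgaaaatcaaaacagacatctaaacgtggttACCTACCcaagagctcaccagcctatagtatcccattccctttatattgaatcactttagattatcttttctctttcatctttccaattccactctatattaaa
CYP79F1, chr1:5608702-5608731, plus strand, 30 bases beginning 20 bases after the start: aaacgtgattaccgtagtACCTACCcaaaa
The word began at position -71 from the start in *CYP83A1*, -104 in *CYP79F2* and 38 in *CYP79F1*. It was on either strand in 3 of the 10 genes and in 1 of 24 other pathway genes. Of 27443 windows of the same length at protein-coding genes, 1.38% had it. *CYP79F1* and *CYP79F2* are neighbours with similar sequences, so their matches may not be independent. The other words searched, on both strands, were the G-box CACGTG, its variant CACATG and GAGAC, the core of a sulfur-responsive element. Among the 10 genes, CACGTG was found in *CYP83A1* only (7.68% of all windows), CACATG in *FMO GS-OX1* only (12.9%) and GAGAC in *MYB29* only (32.8%). Of the 24 other pathway genes, 4 had CACGTG, 1 had CACATG and 12 had GAGAC. A match is a description of the sequence and not a measured site.

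*FMO GS-OX1* (AT1G65860, chromosome 1 from 24499066 to 24502745) encodes a flavin monooxygenase that adds oxygen to the sulfur of the side chain. It was at 20.3, 17.1 and 19.0 FPKM in Col-0 libraries, and at 73.2, 71.7 and 64.2 FPKM in the mutant, with every *fer-4* library far above the Col-0 libraries. *FMO GS-OX1* had a log2 fold change of 1.88 (limma, SE 0.10, adjusted p = 5.6e-06), the second largest of the 10.

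The order of the levels shifted between the genotypes. FPKM is a value per length, so levels were compared between genes. The limits given above for the locus of *BCAT4* and the reads of *CYP79F1* and *CYP79F2* apply here too. In Col-0, *MAM1* was highest (174 FPKM), followed by *CYP79F1*, *BCAT4* and *CYP83A1* (135, 134 and 128 FPKM), whose libraries overlapped from neighbour to neighbour. *MYB28* (37.6 FPKM) came next, above *MYB29*, *MAM3*, *CYP79F2* and *FMO GS-OX1* (30.3, 26.4, 22.6 and 18.8 FPKM), each of which overlapped the next. In *fer-4*, *BCAT4* and *MAM1* (432 and 416 FPKM) overlapped at the top, and all 7 enzyme genes lay above the regulators. The lowest of them there, *CYP79F2* (58.0 FPKM), did not overlap *MYB29* (37.3 FPKM), while *MYB29* and *MYB28* (33.7 FPKM) overlapped each other.

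Ratios between genes within a library, which a scaling factor per library cannot alter, also differed between the genotypes. There were 3.79, 3.42 and 3.51 units of *BCAT4* FPKM per unit of *MYB28* in Col-0, and 12.9, 12.7 and 12.7 in *fer-4*. *FMO GS-OX1* stood to *CYP83A1* as 0.148 ± 0.00541 in Col-0 and 0.267 ± 0.00311 in *fer-4* (SD, n = 3). Among the regulators, *MYB76* was at 0.164 ± 0.0173 of *MYB28* in Col-0 and at 0.320 ± 0.0471 in *fer-4* (SD, n = 3). In all 11 ratios examined, the *fer-4* libraries lay above the Col-0 libraries. The gene with the larger log2 fold change was on top in each, so this direction restates the changes of the single genes. An exact permutation test gave a 2-sided p of 0.1 for each (0.1 also when adjusted over the 11), which is the smallest that 3 against 3 libraries can give.

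**Figure D2:**
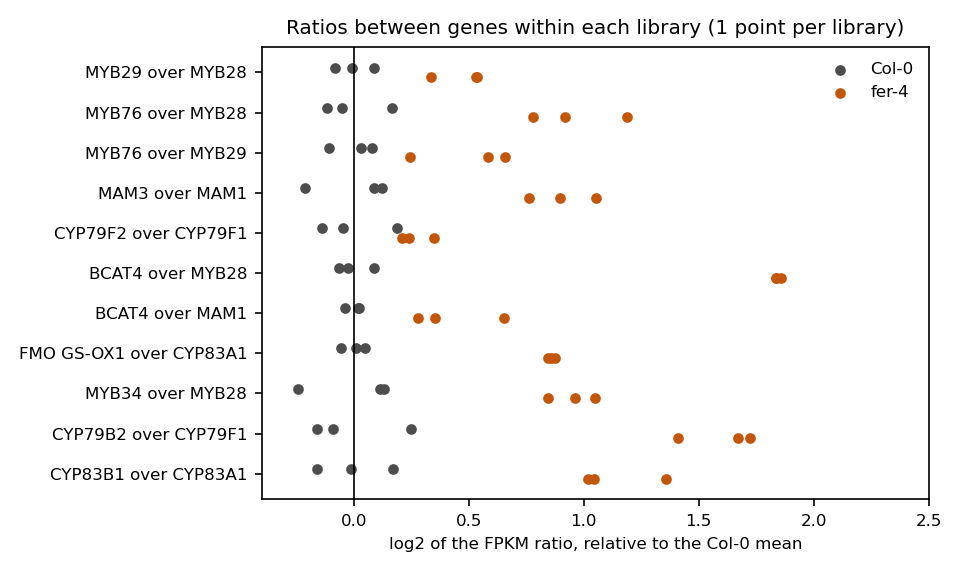
Log2 of the FPKM ratio between pairs of genes within a library, relative to the Col-0 mean (horizontal axis), with 1 point per library. The *fer-4* points lie to the right of the Col-0 points in every row, by 1.84 for *BCAT4* over *MYB28* and by 0.27 for *CYP79F2* over *CYP79F1*.

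Replicates of a genotype deviated together over the 10 genes. Col-0 replicate 2 was the lowest of its genotype for 9 of them, all but *MAM3*, and *fer-4* replicate 3 was the lowest of its genotype for 9, all but *CYP79F1*. Neither library was the highest of its genotype for any of the 10 genes. How often these libraries were lowest over all genes was not counted, so the pattern cannot be called particular to the 10 genes. Col-0 replicate 2 also had the lowest summed FPKM of its genotype (960716), while in *fer-4* that was replicate 2 (910619). The cause of the shared spread over the 10 genes was not tested.

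Most other genes of the pathway rose. Of 25 further genes on a list of known pathway genes, 24 were in the table and 22 were tested, of which 20 rose and 1 fell by limma at the threshold of 0.05 while 1 did not pass, and 10 were higher DEGs. Over all genes tested, 18.0% rose, 16.0% fell and 6.36% were higher DEGs. Their median log2 fold change was 0.98. Among the genes of chain elongation 6 of 6 rose, led by the isopropylmalate dehydrogenase gene *IMD1* (132 to 380 FPKM, log2 fold change 1.53). The plastid keto acid transporter gene *BAT5* (1.00), the isopropylmalate isomerase small subunit gene *IPMI1* (0.90) and the large subunit gene *IIL1* (0.66) followed. *BCAT3*, the aminotransferase of the last elongation step, rose by 0.40 but did not pass after quantile normalization (0.25, adjusted p = 0.0665, limma). *IPMI2*, for another small subunit of the isomerase, rose by 0.55 but did not pass in the absence of replicate 1 or 2 of Col-0 (limma adjusted p = 0.0583 and 0.0761) or replicate 3 of *fer-4* (0.056).

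All 8 genes of core structure formation beyond the P450 enzymes rose. The gamma-glutamyl peptidase gene *GGP1*, which also serves indole glucosinolates, was at 145 ± 7.63 FPKM in wild type and 739 ± 112 FPKM in mutant seedlings (SD, n = 3). *GGP1* had a log2 fold change of 2.34 (limma, SE 0.12, adjusted p = 6.3e-06), against at most 2.15 for the 10 genes. The sulfotransferase gene *SOT17* (1.60), the glutathione S-transferase gene *GSTF11* (1.43) and the glucosyltransferase gene *UGT74B1* (1.41) rose as well.

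Side chain genes were less uniform. The dioxygenase gene *GSL-OH* (1.20) and the monooxygenase genes *FMO GS-OX3* (0.96), *FMO GS-OX2* (0.78) and *FMO GS-OX5* (0.39) rose, although *FMO GS-OX5* did not pass without Col-0 replicate 1 or 2 (limma adjusted p = 0.0675 and 0.0545). In contrast *FMO GS-OX4* was at 34.2, 57.7 and 14.5 FPKM in Col-0 libraries, and at 13.7, 10.8 and 11.8 FPKM in the mutant. It was the only pathway gene to fall, with a log2 fold change of -1.34 (limma, SE 0.42, adjusted p = 0.0396). The Col-0 libraries of *FMO GS-OX4* differed several-fold among themselves, and the call was lost in 7 of 15 alternatives, for example without Col-0 replicate 2 (-0.89, adjusted p = 0.0926, limma). *AOP3* and *BZO1* were below the limit for testing, and *AOP2* was not analysed here. Of the transporter genes, *GTR1* rose from 36.1 ± 1.95 to 155 ± 29.4 FPKM (SD, n = 3, log2 fold change 2.09) and *GTR2* by 1.47. The loci of *IMD1*, *UGT74C1*, *FMO GS-OX5*, *GTR1* and *GTR2* in the files are each shared with 1 other gene, so their values are less certain. *GTR3*, whose locus is also shared, was at 21.4 ± 0.599 FPKM in wild type and 19.0 ± 1.12 FPKM in mutant seedlings (SD, n = 3) and did not pass (adjusted p = 0.151, limma).

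**Figure D3:**
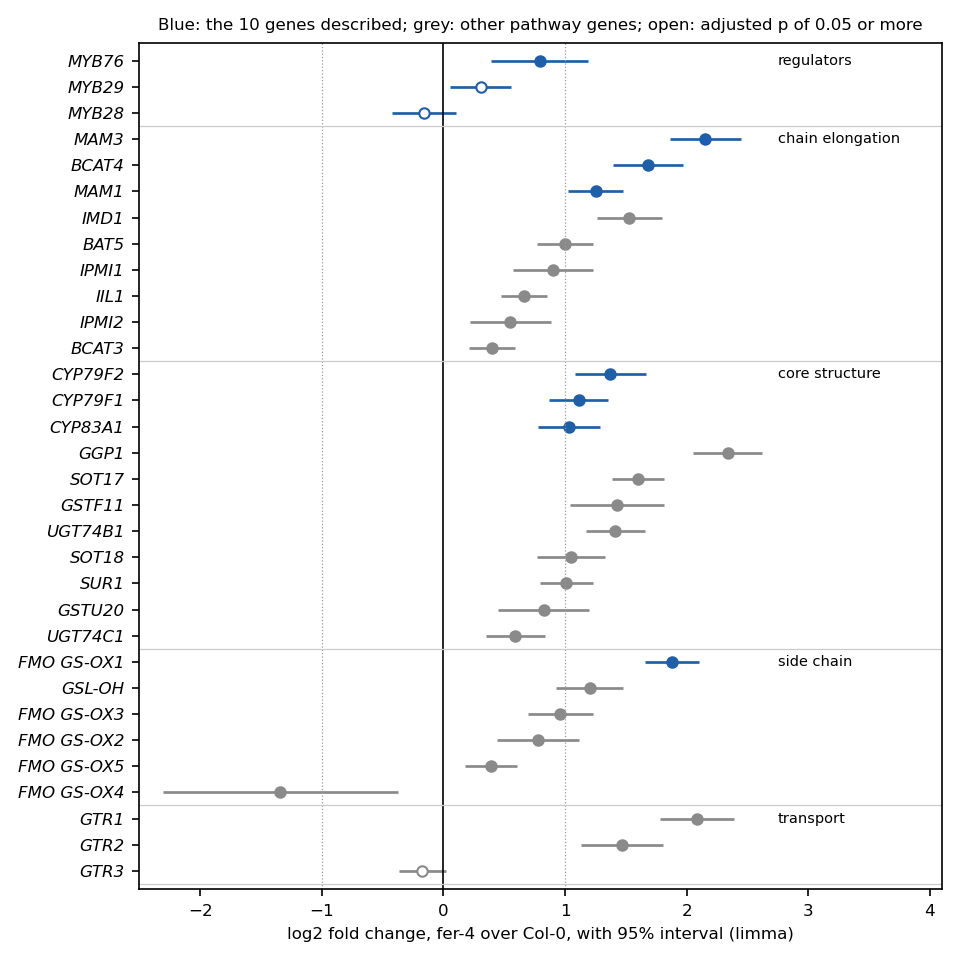
Log2 ratio of mutant to wild type levels with its 95% interval from limma (horizontal axis) for the 10 genes in blue and the 22 other pathway genes tested in grey, ordered by step. Open circles did not pass at an adjusted p under 0.05 (*MYB29*, *MYB28* and *GTR3*), dotted lines mark a 2-fold difference, and *FMO GS-OX4* at -1.34 has the widest interval.

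Genes known to act on the pathway from outside gave a mixed picture. Of 6 listed, 4 rose and 2 did not pass, beside 18.0% of all genes tested that rose and 16.0% that fell. *SDI1*, a gene induced by sulfur deficiency whose product represses the branch through MYB28, was at 1.29, 1.67 and 1.71 FPKM in Col-0 libraries, and at 20.2, 17.4 and 9.97 FPKM in the mutant (log2 fold change 3.21, SE 0.25, limma adjusted p = 4.9e-05). Its relative *SDI2* rose by 1.09. *MYC2* rose by 1.90, and *MYC3* by 0.32, a call that was lost in 9 of 15 alternatives. *MYC4* was at 15.4 ± 1.25 FPKM in wild type and 15.5 ± 1.33 FPKM in the mutant, and *SLIM1*, a regulator of the sulfur deficiency response, at 9.67 ± 1.02 and 9.79 ± 1.05 FPKM (SD, n = 3). The kinase genes *APK1* and *APK2*, which supply activated sulfate for the last core step, both rose (1.64 and 1.81).

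The indole branch starts from tryptophan and has its own MYB factors and P450 enzymes. Of 7 indole genes, 6 rose and 1, the regulator gene *MYB122*, did not pass (0.19, limma adjusted p = 0.7), against 18.0% of all genes tested that rose. Their median log2 fold change was 1.46. The regulator gene *MYB51* rose by 0.62 (limma adjusted p = 0.0396), a call lost in 8 of 15 alternatives, among them the absence of any Col-0 library or of *fer-4* replicate 2 or 3 (limma adjusted p from 0.0713 to 0.135). *CYP79B2* rose from 45.0 ± 2.31 to 295 ± 16.0 FPKM and *CYP79B3* from 52.7 ± 3.86 to 356 ± 12.9 FPKM (SD, n = 3), with log2 fold changes of 2.71 and 2.76. *CYP83B1* (2.17) and the sulfotransferase gene *SOT16* (1.46) rose too. The ratio of *CYP79B2* to *CYP79F1* was 0.313, 0.397 and 0.299 in Col-0 and 1.06, 0.887 and 1.10 in *fer-4*, and that of *CYP83B1* to *CYP83A1* was 0.777 ± 0.0896 and 1.71 ± 0.230 (SD, n = 3). Unlike *MYB28*, the indole regulator gene *MYB34* rose (39.3 ± 2.97 to 68.2 ± 7.37 FPKM, SD, n = 3, log2 fold change 0.79), and the ratio of *MYB34* to *MYB28* was 1.05 ± 0.147 in Col-0 and 2.03 ± 0.141 in *fer-4*. These ratios are among the 11 tested above, each at the smallest p that the exact permutation test allows.

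Markers of cell types were examined beside these results, and their counts stand against 18.0% of all genes tested that rose and 16.0% that fell. Of 5 green tissue markers 4 fell and none rose, and their summed level was 32920 to 36210 FPKM in wild type, against 22080 to 26220 FPKM in the mutant. None of these fell when Col-0 replicate 1 was left out, 1 when Col-0 replicate 3 was, and 2 when either Col-0 replicate 2 or replicate 3 of *fer-4* was. All 4 root hair markers fell (summed level 62.3 to 76.5 against 17.5 to 27.6 FPKM), as did 2 of 4 endodermis markers (99.96 to 105 against 60.4 to 77.7 FPKM). Only 3 of the root hair markers fell when any Col-0 library was left out. Of 3 phloem markers 1 rose and none fell (122 to 151 against 149 to 188 FPKM). Of 4 markers listed together for guard cells and myrosin cells, 3 rose and none fell. Their sum was 1015 to 1084 FPKM in wild type, against 2149 to 2305 FPKM in the mutant. The sum does not tell these cell types apart. Those that rose were the myrosinase genes *TGG2* (1.66) and *TGG1* (0.93) and the regulator gene *FAMA* (0.51), although *FAMA* did not pass without Col-0 replicate 1 or 2 (adjusted p = 0.0548 and 0.0593 from limma). The other, the guard cell regulator gene *MYB60*, was at 8.74, 8.74 and 10.3 FPKM in Col-0 libraries, and at 7.59, 6.90 and 7.78 FPKM in the mutant, and did not pass (log2 fold change -0.31, limma adjusted p = 0.0595). The sum over these markers was mostly *TGG1* and *TGG2*, at 843 and 192 FPKM on average in Col-0 and 1601 and 607 FPKM in *fer-4*. None of the markers was at 0 in any library. The part of these cell types in the rise of the enzyme genes was not tested.

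**Figure D4:**
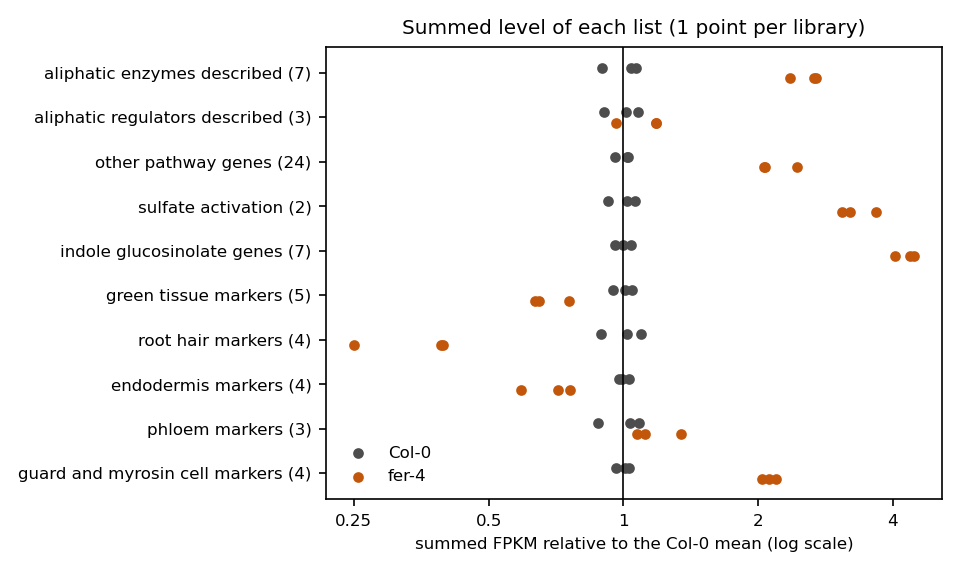
Summed FPKM of each list of genes in each library relative to the Col-0 mean, on a log scale (horizontal axis), with 1 point per library and the number of genes summed in brackets. The 7 aliphatic enzyme genes (572.9 to 682 FPKM in Col-0, 1508 to 1725 in *fer-4*) and the indole genes lie to the right of Col-0, the 3 regulators overlap it (67.0 to 79.9 against 71.2 to 87.3 FPKM), and the green tissue and root markers lie to the left.

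The genes with the highest correlation to *MYB28* over the 6 libraries, both genotypes pooled, were not those of the pathway. Of 19838 genes, AT2G36090 (Pearson's r = 0.991), AT5G48290 (0.990), *PAR1* (0.986), AT2G20870 and *AtPPa3* (both 0.980) came first. The other 9 genes had r from -0.47 (*MAM1*) to -0.03 (*MYB29*). These values describe 6 libraries of 2 genotypes and carry no test. For the enzyme genes, r over pooled genotypes mostly reflects that they rose in the mutant while *MYB28* did not. It therefore cannot show whether they follow *MYB28* within a genotype. In each genotype, the library lowest for *MYB28* was also the lowest for most of the other 9 genes. Correlation within a genotype was not tested.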

How the data were processed

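The deposited table holds, for each gene, FPKM computed by the authors in 3 Col-0 and 3 *fer-4* libraries of whole seedlings. The files name no unit, which was read from the Cufflinks name and the values. Per the labels' processing notes, STAR 2.5 and Cufflinks 2.2.1 were used with TAIR10, after adapters and poor bases had been removed (paper's methods). The authors' fold changes, p-values and q-values in the deposited comparison, and the group columns, were not used. The library kit is directional, but whether counting used strand is not stated in those sources.

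Genes averaging 0.5 FPKM or more over the libraries were compared on log2(FPKM + 0.1), so fold changes of low genes are understated, with limma 3.58.1 (R 4.3.3, intensity trend), with Benjamini-Hochberg adjustment over every gene tested. Folds without log are ratios of mean FPKM. Each p-value sets the difference between the genotypes against the spread between these samples, which limma moderates over all genes. Alternatives were pseudocounts of 1 and 0.01, no filter or a mean of at least 1 FPKM, quantile normalization, upper quartile scaling, no trend, library weights, a replicate block and leaving out each library. The members and lists were chosen with earlier results of these data known. All 10 members, the 4 genes of each list with the largest change in each direction and the 5 genes most like *MYB28* were to be named. Starts in the files were raised by 1, because among 7465 genes with the same end in RefSeq (TAIR10.1), 3883 had a start 1 less and 22 an equal one. Promoters and coding sequences are from RefSeq, and all 10 genes matched. Python 3.11.15, pandas 2.3.3, Biopython 1.88 and matplotlib 3.10.9 did the rest.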

Additional observations from a re-analysis of the deposited data

How the results depend on the processing

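For the 10 genes, all 150 log2 fold changes under the alternatives kept their direction and their side of the threshold. No other pathway gene fell with no filter (0) or no intensity trend (0), and 0 to 1 fell when a library was left out. Leaving out a library gave 0 to 4 green tissue markers that fell and 1 to 2 phloem markers that rose, and library weights gave 2 of the latter. With quantile normalization 1 marker of guard and myrosin cells fell, and 1 with upper quartile scaling. Over all genes, leaving out a library gave 1932 to 3705 that fell, with 1932, 2053 and 2061 when Col-0 replicate 1, 2 or 3 was absent. Among genes that did not pass, the sign of *MYC4* turned with quantile normalization (-0.064) and upper quartile scaling (-0.078), as did that of *SLIM1* (-0.039 and -0.067). Leaving out a library gave -0.056 to 0.075 for *MYC4*, -0.053 to 0.108 for *SLIM1* and -0.072 to 0.420 for the indole regulator gene *MYB122*. The causes were not tested. Scaling moved the median log2 fold change of all genes from -0.01 to -0.08 (quantile) and -0.09 (upper quartile). Of the 5 genes closest to *MYB28*, 4 stayed with a pseudocount of 1.

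No sign was seen that replicate numbers pair the libraries, although 3 libraries of each genotype could not show a weak pairing. Deviations from the genotype means correlated between same-numbered libraries at -0.04, 0.04 and -0.07, and not every library correlated best with its own number. With the replicate block 3404 genes rose and 2986 fell, against 3569 and 3170 without it, and 8 of the 10 genes rose either way. Depth is unknown, so no counting error is given.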

Other observations

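The nearest tested genes on each side of the 10 on the chromosome, with untested genes passed over, were 14. By limma 3 rose, 3 fell and 8 missed the threshold of 0.05 on the adjusted p. These shares are near those of all genes tested, of which 18.0% rose and 16.0% fell. AT1G16390, beside *CYP79F2*, had a mean of 15.9 FPKM in wild type and 9.71 FPKM in mutant seedlings (log2 fold change -0.70). The nearest tested genes on both sides of *FMO GS-OX1* rose. AT1G65845 averaged 101 and 272 FPKM (1.33) and AT1G65870 averaged 23.4 and 31.8 FPKM (0.44, adjusted p = 0.0409, limma). AT5G23000, before *MAM1*, averaged 0.876 and 2.28 FPKM (1.26). These neighbours were named after their values were seen.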
